A study of Ovis aries with 115 samples.

Results

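The genes CD27 (ENSOARG00000008332), CD80 (ENSOARG00000019762), PDCD1 (ENSOARG00000017587) and FLT3 (ENSOARG00000012379), all known from cells of the immune system, were followed through the cervix of 4 sheep breeds. They are 4 of the 27054 gene identifiers in the deposited counts, and the names were taken from the tables of the study. They were selected on the difference of their levels between Suffolk and the Norwegian breeds in synchronised follicular ewes, so the values of those ewes are given as a description, with no test. All 4 genes passed the filter on low counts, and FLT3 was nearest to it. FLT3 had 1 CPM (read pairs per 1000000 counted, without scaling) or more in 19 of the 39 synchronised follicular libraries, against 35 to 37 for CD27, CD80 and PDCD1. Gene levels below are CPM after TMM scaling of library sizes.

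Each library held RNA of the mid-cervix of 1 multiparous ewe. Suffolk, of low fertility after cervical insemination with frozen-thawed semen, and Belclare, of medium fertility, were sampled in Ireland, and Fur and Norwegian White Sheep (NWS), both of high fertility, in Norway. A difference between an Irish and a Norwegian breed is therefore also one between countries, and these cannot be told apart. There were 11 Suffolk, 10 Belclare, 8 Fur and 10 NWS ewes in the follicular phase after synchronisation with progestagen sponges and eCG. Ewes in the follicular phase of a natural cycle numbered 8, 10, 10 and 10 in the same order of breeds, and synchronised ewes in the luteal phase 10, 10, 9 and 8. One more Suffolk library, whose labels name different cycles and phases, was left out of every comparison. The luteal ewes were synchronised and the natural ewes were not, so in every breed the comparison of these states mixes phase with synchronisation. Only in Belclare were both also tested against synchronised follicular ewes.

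CD27, a receptor of the TNF receptor family, is carried by T cells, memory B cells and plasma cells and sustains their response when bound by its ligand CD70. PDCD1, also known as PD-1, is an inhibitory receptor of activated lymphocytes. CD80 is a ligand that antigen-presenting cells show to T cells, where it binds the activating receptor CD28 and the inhibitory receptor CTLA4. FLT3 is a receptor tyrosine kinase of blood progenitors and the dendritic cell lineage, which depend on its ligand. In bulk tissue fewer cells of a type and less RNA per cell cannot be told apart.

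Library totals ranged from 12238996 to 31261671 counts, with a median of 17796018. At these depths 3 counts correspond to 0.173 CPM on average, and 4 values of the 4 genes lay at or below 3 counts. These were CD27 in a natural NWS ewe, PDCD1 and FLT3 in the same luteal Fur ewe (replicate 8) and FLT3 in a synchronised follicular NWS ewe. No library repeated another of its own breed and state, since such pairs (490 in all) had a chi-square of at least 15.4 times its degrees of freedom. Pairs across breeds or states were not compared. Replicates 4 and 10 labelled as natural NWS ewes stood apart in the mitochondrial gene COX-1, at 38.3 and 32.8 CPM. These values lie in the range of Fur ewes, 25.8 to 49.3 CPM over all states, whereas NWS ewes of the synchronised states ran from 1290 to 2130 CPM. In this gene both libraries thus go against their breed label, which was kept. Leaving them out changed no call of the 4 genes in any tested comparison that holds natural NWS ewes, and FLT3 compared to Suffolk was then -2.22 on the log2 scale (adjusted p = 0.181) and compared to Belclare -2.55 (adjusted p = 0.0148).

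**Figure D1:**
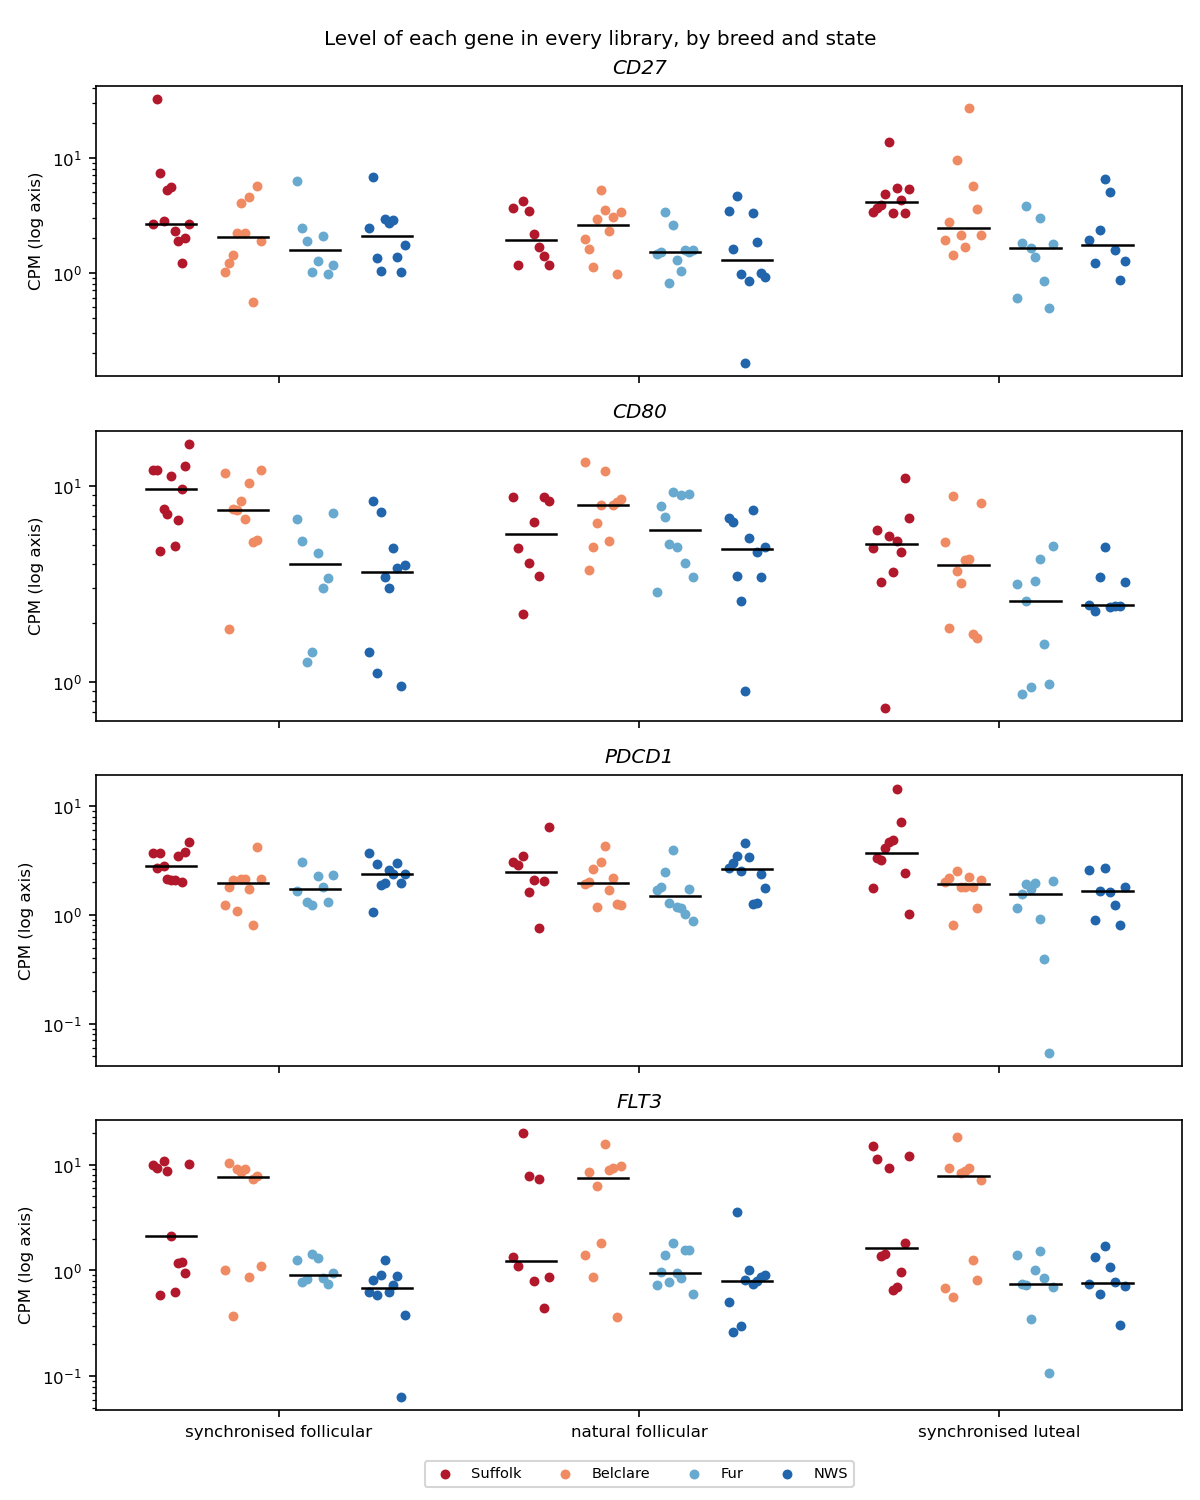
Level of CD27, CD80, PDCD1 and FLT3 in CPM (log axis) in each of 114 libraries, by breed and state, with each group's median as a black line. FLT3 libraries of Suffolk and Belclare lie in 2 bands in every state, whereas all Fur and all but 1 of the NWS libraries lie in the lower band.

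FLT3 had the most uneven distribution of the 4 genes. In Suffolk ewes at the natural follicular phase, FLT3 had a lowest value of 0.441, a median of 1.22 and a highest value of 19.8 CPM. Natural Belclare ewes ran from 0.361 to 15.6 CPM with a median of 7.39. Natural Fur ewes ran from 0.599 to 1.80 CPM with a median of 0.956, and NWS ewes from 0.265 to 3.53 CPM with a median of 0.802. Thus the Irish libraries reached values that no Norwegian library did, while their lowest values overlapped with those of Fur and NWS.

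The Irish libraries of FLT3 fell into separate groups. Over the 59 Suffolk and Belclare libraries of all 3 states, none lay between 2.13 and 6.27 CPM, a gap of 1.51 on the log2 scale. There were 29 libraries below and 30 above this gap. The widest such gap, leaving the 5 lowest and 5 highest libraries aside, was 0.19 for CD27, 0.51 for CD80 and 0.33 for PDCD1 in the same ewes, and 0.30 for FLT3 in the 55 Norwegian libraries. The split is thus seen in FLT3 and not in the other 3 genes.

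Both sides of the gap held ewes of each Irish breed in each state. Above it were 6 of 10 natural, 6 of 10 synchronised follicular and 6 of 10 luteal Belclare ewes. In Suffolk these were 3 of 8 natural, 5 of 11 synchronised follicular and 4 of 10 luteal ewes. The libraries above the gap had a median of 8.94 CPM in Belclare and 10 CPM in Suffolk, and those below it 0.861 and 0.972 CPM. The lower medians are close to those over all ewes of Fur, 0.857 CPM, and of NWS, 0.76 CPM. None of the 27 Fur and 28 NWS libraries lay above the gap, and 1 natural NWS ewe at 3.53 CPM lay within it. Because the Irish libraries form 2 clusters, a group mean of FLT3 describes the share of libraries above the gap more than any single ewe.

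**Figure D2:**
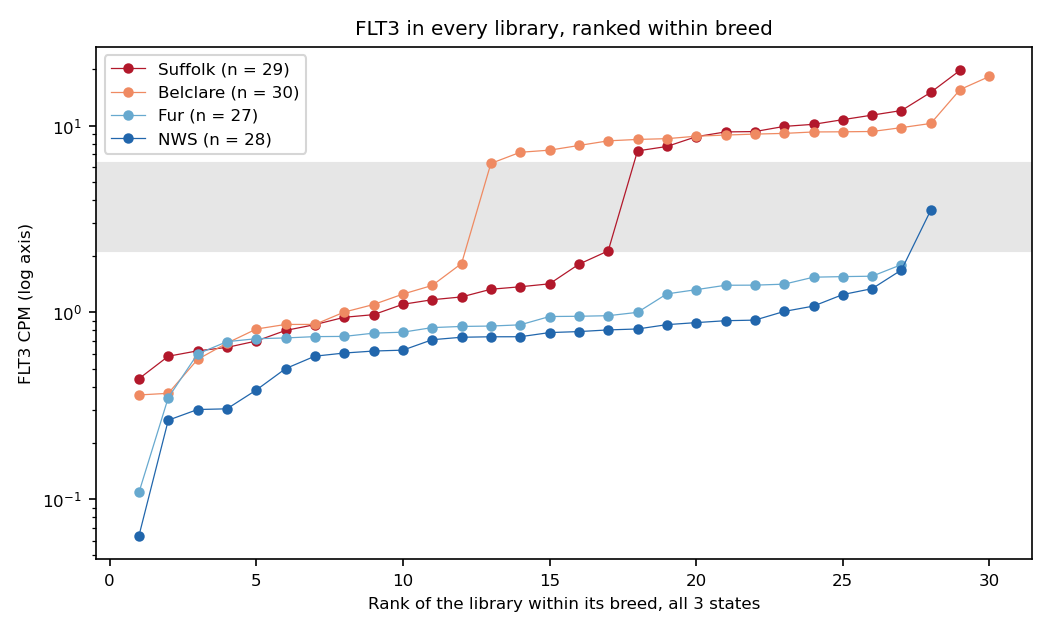
FLT3 in CPM (log axis) in every library of the 3 states, ranked within its breed, with the gap between 2.13 and 6.27 CPM shaded. Lines of 12 Belclare and 17 Suffolk libraries run below the gap with those of Fur and NWS, and then jump across it.

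FLT3 was the member with the largest breed differences. In natural follicular ewes it had lower expression in Fur compared to Suffolk, by a log2 fold change of -2.15 (SE 0.61, edgeR quasi-likelihood adjusted p = 0.0215), with 1.12 ± 0.422 CPM in Fur (SD, n = 10) and 4.92 ± 6.71 CPM in Suffolk (SD, n = 8). It was the only one of the 4 genes called there (adjusted p under 0.05 and fold change above 1.5), against 9.62% of all 14811 genes tested. In NWS the log2 fold change of FLT3 compared to Suffolk was -2.35 (SE 0.68), which did not pass (adjusted p = 0.0792), so 0 of 4 genes were called by edgeR, with 0.993% of all genes. FLT3 was the only one of the 4 with an unadjusted p under 0.05 there, and DESeq2 called it. The groups overlapped in both, since 5 of the 8 Suffolk ewes lay below the gap.

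The Suffolk ewe at 19.8 CPM (replicate 4) decides the call in Fur, which without it was -1.35 with an adjusted p of 0.07. The NWS comparison in turn passed without the NWS ewe at 3.53 CPM (replicate 3; log2 fold change -2.84, adjusted p = 0.0415). It also passed without Suffolk replicate 6 (-2.51, adjusted p = 0.0335).

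At the synchronised luteal phase, FLT3 ranged from 0.649 through a median of 1.61 to 15.1 CPM in Suffolk, from 0.109 through 0.741 to 1.54 CPM in Fur and from 0.304 through 0.76 to 1.69 CPM in NWS. It had lower expression in Fur (log2 fold change -2.73, SE 0.66, adjusted p = 0.0053) and in NWS (-2.59, SE 0.68, adjusted p = 0.0253) compared to Suffolk. The 4 Suffolk ewes above the gap, and the highest one below it at 1.81 CPM, lay over every luteal Fur and NWS ewe. The other Suffolk ewes overlapped with the Norwegian ones, and without NWS replicate 7 the NWS difference had an adjusted p of 0.0515.

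In Belclare ewes, the other Irish breed, FLT3 was not called compared to Suffolk. The log2 fold change was 0.34 (SE 0.75, adjusted p = 0.902) in natural and 0.23 (SE 0.70, adjusted p = 0.866) in luteal ewes, and these standard errors are wide. Compared to Belclare, FLT3 had lower expression in natural Fur (-2.49, SE 0.51, adjusted p = 0.000758) and natural NWS ewes (-2.68, SE 0.58, adjusted p = 0.00393). The luteal differences from Belclare were -2.96 in Fur (SE 0.64, adjusted p = 0.00144) and -2.83 in NWS (SE 0.65, adjusted p = 0.00568). FLT3 was the only one of the 4 genes called by edgeR in natural Fur and NWS and in luteal NWS ewes compared to Belclare, with 15.7%, 13% and 11.6% of all genes, and luteal Fur ewes had 2 of 4 called, with 16.3%. These comparisons share the Norwegian ewes with those against Suffolk. Between NWS and Fur, none of the 4 genes was called in either state by edgeR or by DESeq2 (0.0338% of all genes in natural and 0.0405% in luteal ewes by edgeR), and 1 gene of the 4 in natural and 0 in luteal ewes had an unadjusted p under 0.05. FLT3 had log2 fold changes of -0.21 in natural (adjusted p = 0.831) and 0.13 in luteal ewes (adjusted p = 0.924).

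The synchronised follicular ewes, on which the genes were chosen, showed FLT3 at -2.30 in Fur, -2.86 in NWS and 0.14 in Belclare on the log2 scale relative to Suffolk, given without a test. Suffolk ewes of this state ran from 0.582 to 10.7 CPM (median 2.13), Fur ewes from 0.743 to 1.42 CPM (median 0.903) and NWS ewes from 0.0636 to 1.25 CPM (median 0.681). Belclare ewes had a median of 7.6 CPM. FLT3 thus met the filter on low counts, which was set on the ewes of this state, mainly through the Irish breeds. FLT3 was not called by state in any breed. Its log2 fold change between luteal and natural ewes lay between -0.44 in Fur and 0.17 in Suffolk, with adjusted p-values of 0.307 and 0.901.

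CD27, the lymphocyte receptor, had its clearest breed difference at the luteal phase. Luteal Suffolk ewes ran from 3.29 to 13.6 CPM with a median of 4.07, and luteal Fur ewes from 0.489 to 3.76 CPM with a median of 1.65. Of the 9 Fur ewes, 8 lay below every Suffolk ewe. CD27 was lower in Fur by a log2 fold change of -1.59 (SE 0.37, adjusted p = 0.00386). Luteal NWS ewes, from 0.862 to 6.5 CPM with a median of 1.74, had a log2 fold change of -0.96 (SE 0.40) that did not pass (adjusted p = 0.135), although 6 of the 8 lay below every Suffolk ewe.

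In natural ewes CD27 differed less, and the groups overlapped throughout. Natural Suffolk ewes ran from 1.17 to 4.16 CPM (median 1.92), Belclare ewes from 0.963 to 5.26 CPM (median 2.6), Fur ewes from 0.819 to 3.39 CPM (median 1.51) and NWS ewes from 0.163 to 4.59 CPM (median 1.29). The log2 fold changes compared to Suffolk were 0.13 in Belclare, -0.52 in Fur and -0.34 in NWS, and none passed (adjusted p = 0.919, 0.241 and 0.727). In natural Belclare compared to Suffolk ewes 0 of the 4 genes and 0% of all genes were called by edgeR, with 1443 genes at an unadjusted p under 0.05 and 18 called by DESeq2. From natural to luteal ewes the Fur difference changed by -1.09 on the log2 scale, but this interaction of breed and state did not pass (SE 0.49, adjusted p = 0.248).

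Single ewes set the highest CD27 values. A luteal Belclare ewe (replicate 7) reached 27.2 CPM when the median of its group was 2.45, and a synchronised follicular Suffolk ewe reached 32.1 CPM with a group median of 2.64. Luteal Fur ewes had a CD27 log2 fold change of -1.77 compared to luteal Belclare (SE 0.58, adjusted p = 0.0207), a call that rests on the ewe at 27.2 CPM. Without it the value was -0.998 (adjusted p = 0.0731), and that of Belclare compared to Suffolk turned from 0.18 to -0.57 (adjusted p = 0.298). In the synchronised follicular ewes the values compared to Suffolk were -1.27 in Belclare, -1.49 in Fur and -1.30 in NWS, again without a test, and they contain the Suffolk ewe at 32.1 CPM.

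PDCD1, the inhibitory receptor, was lower in all 3 breeds compared to Suffolk at the luteal phase. Luteal Suffolk ewes ran from 1.03 to 14.5 CPM (median 3.71), Belclare ewes from 0.808 to 2.54 CPM (median 1.91), Fur ewes from 0.0543 to 2.04 CPM (median 1.54) and NWS ewes from 0.811 to 2.70 CPM (median 1.64). Between 7 and 8 of the 10 Suffolk ewes lay above every ewe of each other breed. The log2 fold changes were -1.36 in Belclare (SE 0.36, adjusted p = 0.0439), -1.85 in Fur (SE 0.49, adjusted p = 0.00859) and -1.49 in NWS (SE 0.41, adjusted p = 0.0325).

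With these, the luteal comparisons with Suffolk called 1 of 4 genes in Belclare, 3 of 4 in Fur and 2 of 4 in NWS, all lower. Over all genes 2.43%, 13.8% and 4.35% were called. The 3 comparisons share the Suffolk ewes. The Belclare call was close to the threshold and was lost in 13 of the 20 fits that left out 1 ewe, with adjusted p-values up to 0.0825. Without the Suffolk ewe at 14.5 CPM (replicate 7) the Belclare difference was -0.99 (adjusted p = 0.0616). The NWS call was lost without NWS replicate 3, 5, 6 or 7 or Suffolk replicate 8, with adjusted p-values from 0.0512 to 0.0639.

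In natural ewes PDCD1 was not called in any breed, with log2 fold changes compared to Suffolk of -0.38 in Belclare, -0.72 in Fur and -0.09 in NWS (adjusted p = 0.71, 0.146 and 0.915). Natural Suffolk ewes ran from 0.754 to 6.45 CPM with a median of 2.50, and natural NWS ewes from 1.25 to 4.56 CPM with a median of 2.62. The change of the NWS difference between the states was -1.41 (SE 0.54, p = 0.0127), but over all genes it did not pass (adjusted p = 0.645). The interaction test called 0 of the 4 genes in all 3 breeds, with 0%, 1.45% and 0.0135% of all genes called in Belclare, Fur and NWS. At an unadjusted p under 0.05 stood 0, 2 and 1 of the 4, DESeq2 called 0 of them in each breed, and in Belclare 1617 of all genes had an unadjusted p under 0.05. For the synchronised follicular ewes, PDCD1 had values of -0.64, -0.68 and -0.34 in Belclare, Fur and NWS compared to Suffolk, with no test.

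**Figure D3:**
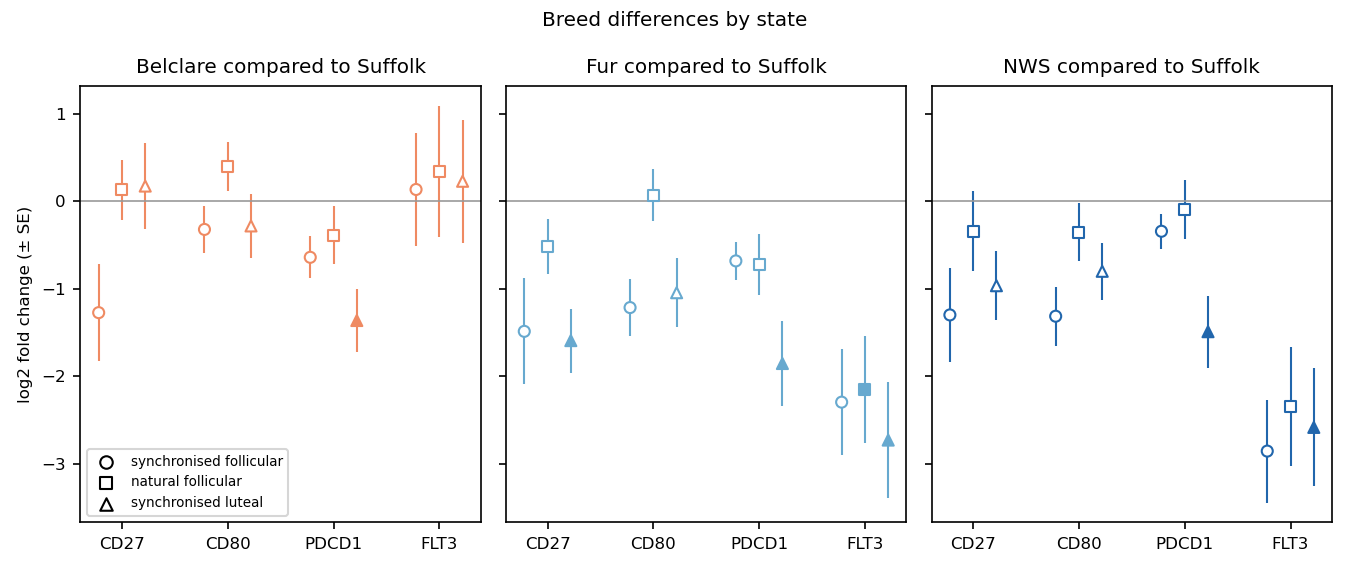
log2 fold change of the 4 genes in Belclare, Fur and NWS compared to Suffolk, by state, with bars of 1 SE. Filled symbols were called, and the synchronised follicular ewes (circles) were not tested. FLT3 lies between -2.15 and -2.86 in both Norwegian breeds in all states and near 0 in Belclare, and PDCD1 is called in each panel at the luteal phase.

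CD80, the ligand on antigen-presenting cells, was not called in any tested comparison of breeds when each was fitted by edgeR on its own ewes, but some of these outcomes changed with the setting. Natural Suffolk ewes ran from 2.22 to 8.82 CPM with a median of 5.69. Natural Fur ewes, from 2.89 to 9.26 CPM with a median of 5.98, differed from them by 0.07 on the log2 scale (adjusted p = 0.882). At the luteal phase the log2 fold changes compared to Suffolk were -0.28 in Belclare, -1.04 in Fur and -0.80 in NWS (adjusted p = 0.663, 0.0506 and 0.129), and in Fur it passed with DESeq2's Wald test (adjusted p = 0.0256) and with all 4 breeds in one fit (adjusted p = 0.029). In natural NWS compared to Belclare ewes it stood at -0.75 (SE 0.29, adjusted p = 0.0683), and passed with DESeq2 (adjusted p = 0.0347) and with all breeds in one fit (adjusted p = 0.0499). Without the luteal Suffolk ewe at 0.739 CPM (replicate 4), CD80 passed in Fur (-1.18, adjusted p = 0.0168) and in NWS (-0.93, adjusted p = 0.0248). In the synchronised follicular ewes, where the gene was chosen, CD80 stood at -1.21 in Fur and -1.31 in NWS compared to Suffolk.

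CD80 did differ by state. Natural Belclare ewes ran from 3.72 through a median of 7.95 to 13.2 CPM, and luteal Belclare ewes from 1.69 through 3.95 to 8.83 CPM, a log2 fold change of -0.85 (SE 0.31, adjusted p = 0.0323). In Fur, natural ewes had 6.25 ± 2.49 CPM (SD, n = 10) and luteal ewes 2.50 ± 1.51 CPM (SD, n = 9), a log2 fold change of -1.32 (SE 0.34, adjusted p = 0.00517). The groups overlapped, with 5 luteal ewes below every natural ewe in each of these breeds. In NWS the value was -0.63 (adjusted p = 0.159) and in Suffolk -0.17 (adjusted p = 0.761), and neither passed. The Fur change minus the Suffolk change was -1.13 on the log2 scale, but this interaction did not pass (SE 0.51, adjusted p = 0.248). Given without a test, CD80 in luteal compared to synchronised follicular ewes stood at -0.87 in Suffolk, -0.69 in Fur and -0.36 in NWS. Synchronised follicular compared to natural ewes stood at 0.69 in Suffolk, -0.62 in Fur and -0.26 in NWS. The values of luteal compared to natural ewes thus hold both parts.

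Belclare was the breed in which all 3 states could be tested. Synchronised follicular Belclare ewes had CD80 from 1.86 to 12.1 CPM with a median of 7.54. Luteal ewes were lower than these by a log2 fold change of -0.85 (SE 0.33, adjusted p = 0.0439). Against natural ewes, the synchronised follicular ewes differed by -0.02 (SE 0.27). In that comparison of cycles 0 of 4 genes and 0% of all genes were called by edgeR, with 291 genes at an unadjusted p under 0.05. DESeq2's Wald test called 0 of the 4 as well.

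CD27 was higher in synchronised luteal than in natural follicular Suffolk ewes. Luteal Suffolk ewes had 5.09 ± 3.09 CPM (SD, n = 10) and natural Suffolk ewes 2.34 ± 1.21 CPM (SD, n = 8), a log2 fold change of 1.12 (SE 0.33, adjusted p = 0.024), and 0.83 (adjusted p = 0.0405) without the luteal ewe at 13.6 CPM. The lowest luteal ewe, at 3.29 CPM, lay among the natural ewes, of which 3 of 8 were higher than it. Synchronised follicular Suffolk ewes, given without a test, had a mean of 5.96 CPM, which holds the ewe at 32.1 CPM, and a median of 2.64 CPM. Luteal Suffolk ewes stood at -0.21 on the log2 scale compared to these, and these at 1.34 compared to natural ewes. In Belclare the log2 fold change of luteal compared to natural ewes was 1.17 (SE 0.51, adjusted p = 0.0769), which did not pass, and DESeq2 called it (adjusted p = 0.0454). PDCD1 was not called in any breed by state, and ranged from -0.64 in NWS to 0.77 in Suffolk. The comparison of luteal and natural ewes thus called 1 of 4 genes in Suffolk, Belclare and Fur and 0 of 4 in NWS, when 12.7%, 19.7%, 18.5% and 9.11% of all genes were called, so the count of the 4 genes says little beside that of all genes. In NWS 2 of the 4 had an unadjusted p under 0.05, and DESeq2 called 0. For luteal against synchronised follicular Belclare ewes it was 1 of 4 genes and 22.4%.

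**Figure D4:**
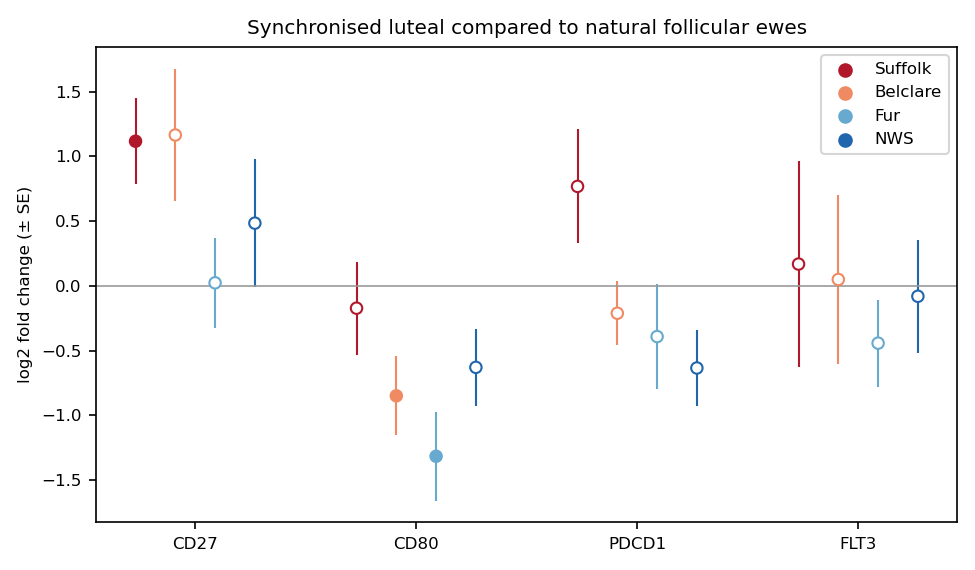
log2 fold change of the 4 genes in synchronised luteal compared to natural follicular ewes of each breed, with bars of 1 SE, and filled symbols where the gene was called. CD80 is below 0 in all 4 breeds and called in Belclare and Fur, and CD27 is called higher in Suffolk.

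The 12 groups were ordered by mean CPM. None of the 11 steps between neighbours was larger than the larger of the 2 SDs, for any of the 4 genes, but in FLT3 the SDs of the Irish groups span both clusters. There the 6 Irish groups stood above the 6 Norwegian ones, with the widest step from natural Suffolk at 4.92 CPM to natural Fur at 1.12 CPM. CD27 went from 5.96 CPM in synchronised follicular Suffolk to 1.67 CPM in natural Fur ewes. CD80 went from 9.54 CPM in synchronised follicular Suffolk to 2.50 CPM in luteal Fur ewes. PDCD1 went from 4.71 CPM in luteal Suffolk to 1.30 CPM in luteal Fur ewes, and FLT3 from 6.44 CPM in luteal Belclare to 0.685 CPM in synchronised follicular NWS ewes. Levels are not compared between genes, as no gene lengths were used.

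Marker lists of cell types moved with breed beside the 4 genes. The lists were drawn mostly from genes that the study had listed as higher in Suffolk than in Fur on the synchronised follicular ewes, so their direction is not independent evidence. Smooth muscle genes (ACTG2, DES and ACTC1) summed to between 576 and 9240 CPM in luteal Fur and between 927 and 3870 CPM in luteal NWS ewes, against 320 to 970 CPM in luteal Suffolk ewes. All 3 were higher in luteal Fur and 2 of 3 in luteal NWS ewes compared to Suffolk, with ACTG2 at 2.58 (SE 0.36, adjusted p = 0.000179) and 2.15 (SE 0.24, adjusted p = 7.8e-05). Over all genes 13.8% and 4.35% were called there. When ACTG2 and DES were fitted as a covariate, no gene of the 4 was called in Fur or NWS compared to Suffolk in either state. CD27 in luteal Fur was then -1.03 (adjusted p = 0.227), PDCD1 -0.54 in luteal Fur and -0.25 in luteal NWS, and FLT3 -2.77 in luteal Fur (adjusted p = 0.0631) and -4.03 in luteal NWS (adjusted p = 0.221). In natural ewes FLT3 was then -1.30 in Fur (adjusted p = 0.321) and -1.44 in NWS (adjusted p = 0.849). Smooth muscle levels differed between these breeds, so this fit cannot fully tell muscle from breed. Over all genes, most calls were lost with the covariate in natural Fur and luteal NWS ewes too, and most were kept in luteal Fur ewes. Whether muscle content accounts for the differences of the 4 genes was not tested.

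Immune lists were lower in luteal Fur compared to Suffolk ewes. Of the B lineage and antibody genes 9 of 10 were lower, with a median log2 fold change of -1.70 against -0.02 over all genes, among them IGHE, the heavy chain of IgE (-2.43, SE 0.72, adjusted p = 0.0165), and PRDM1, a regulator of plasma cells (-0.85, SE 0.21, adjusted p = 0.00632). Of the T and NK lineage genes 6 of 15 were lower (median -0.65), including GNLY, a cytotoxic granule protein (-2.25, SE 0.53, adjusted p = 0.00472). Of the dendritic and myeloid genes 7 of the 10 that passed the filter were lower (median -0.79), including PLEK (-1.44, SE 0.36, adjusted p = 0.00654). None of these genes was higher, and 13.8% of all genes were called in this comparison. Epithelial genes were lower in 4 of 10 and mucins in 2 of 3.

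The other costimulation and cytokine receptor genes gave 5 of 10 lower in luteal Fur and 3 of 10 in luteal NWS compared to Suffolk, and 6 of 10 and 1 of 10 in natural ewes. Over all genes 13.8% and 4.35% were called in luteal and 9.62% and 0.993% in natural ewes. ICOSLG, a costimulatory ligand of the same family as CD80, was lower in luteal Fur (-1.14, SE 0.19, adjusted p = 0.000558), luteal NWS (-0.93, SE 0.22, adjusted p = 0.0165) and natural Fur ewes (-1.07, SE 0.28, adjusted p = 0.0163), and did not pass in natural NWS ewes (-1.06, SE 0.27, adjusted p = 0.0578). IL15RA, a subunit of the IL-15 receptor, was lower in natural Fur (-0.90, SE 0.22, adjusted p = 0.0109), natural NWS (-0.92, SE 0.20, adjusted p = 0.0411) and luteal Fur ewes (-1.02, SE 0.28, adjusted p = 0.0107), and did not pass in luteal NWS ewes (-0.56, SE 0.27, adjusted p = 0.2). ICOSLG and IL15RA were picked from their list by smallest p in natural NWS compared to Suffolk ewes. Their p-values there follow from that choice, and the natural Fur comparison shares the Suffolk ewes. In luteal NWS compared to Suffolk, 4 of 10 B lineage, 1 of 15 T and NK and 2 of 10 dendritic and myeloid genes were lower, with 4.35% of all genes called. In natural ewes these counts were 0 in NWS, and 2, 1 and 1 in Fur, where 9.62% of all genes were called. Epithelial genes were lower in 6 of 10 in natural Fur and 3 of 10 in natural NWS ewes, and mucins in 2 of 3 and 0 of 3. Belclare had 0 of the genes of these lists called against Suffolk in natural ewes, where 0% of all genes were called. In luteal Belclare ewes 1 T and NK gene was lower, with 2.43% of all genes called.

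By state, genes of the lymphocyte lists were called in both directions. Luteal Suffolk ewes had 2 of 10 B lineage genes higher and 0 lower than natural ones, and 5 of 15 T and NK genes higher and 1 lower, with 12.7% of all genes called. Luteal Belclare ewes had 5 of 10 B lineage genes higher and 1 lower (PRDM1, -1.26, SE 0.18, adjusted p = 4.08e-05), and 7 of 15 T and NK genes higher and 2 lower, with 19.7% of all genes called. In luteal Fur ewes 0 of either list was higher and 1 of each was lower, and in luteal NWS ewes 0 were higher and 2 T and NK genes were lower. With 18.5% of all genes called in Fur and 9.11% in NWS, these counts say little beside those of all genes.

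Muscle and mucin genes also differed by state, in the breeds with calls of CD27 or CD80 too. ACTC1, an actin of muscle, was lower at the luteal phase in Suffolk (-2.72, SE 0.63, adjusted p = 0.00766), Belclare (-2.08, SE 0.74, adjusted p = 0.0317), Fur (-2.13, SE 0.73, adjusted p = 0.0256) and NWS ewes (-3.41, SE 0.83, adjusted p = 0.0131). Of the 3 smooth muscle genes 1 was lower in Suffolk and Belclare and 2 in Fur and NWS. Over all genes 12.7%, 19.7%, 18.5% and 9.11% were called in Suffolk, Belclare, Fur and NWS. The summed level of the smooth muscle list had luteal medians of 561 CPM in Suffolk, 510 in Belclare, 2350 in Fur and 2360 in NWS, against 486, 571, 5100 and 5610 CPM in natural ewes. Of the 3 mucins 2 were lower in Belclare, 1 in Suffolk and Fur and 0 in NWS, MUC16 among them in Belclare (-1.72, SE 0.25, adjusted p = 3.79e-05). Their part in the differences of the 4 genes by state was not tested.

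The 4 genes were next related to each other across libraries, to see whether ewes high in one were high in another. Values were log2 CPM with the mean of each breed and state taken out, over the 75 natural follicular and synchronised luteal libraries, with permutation within breed and state and adjustment over 6 pairs. CD27 and PDCD1 had a Pearson's r of 0.26 (permutation p = 0.0179, adjusted p = 0.0538) and a Spearman's rho of 0.29 (permutation p = 0.0129, adjusted p = 0.0386). Without the 2 libraries farthest from the median of CD27, r was 0.35. It came to 0.02 in the 38 natural ewes and 0.42 in the 37 luteal ewes, a difference that was not tested.

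No relation of CD80 with the lymphocyte receptors passed over the 4 breeds. Its r with CD27 was 0.18 (permutation p = 0.166, adjusted p = 0.332), with a rho of 0.12 (permutation p = 0.334, adjusted p = 0.53), and without the 2 farthest libraries r was 0.05. Its r with PDCD1 was 0.09 (permutation p = 0.51, adjusted p = 0.765), with a rho of 0.11 (permutation p = 0.353, adjusted p = 0.53), and 0.18 without the 2 farthest libraries. In the 37 Fur and NWS ewes alone, an alternative chosen after the data were seen, CD27 with CD80 had an r of 0.48 that passed (permutation p = 0.00579, adjusted p = 0.0347), a rho of 0.38 that did not (permutation p = 0.0293, adjusted p = 0.143), and an r of 0.38 without the 2 farthest libraries (adjusted permutation p = 0.0552). In the 39 synchronised follicular ewes, as a description, r was 0.24 for CD27 with CD80, 0.14 for CD27 with PDCD1 and 0.00 for CD80 with PDCD1.

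For FLT3 an r over all breeds mixes the 2 Irish clusters, so its values, among which CD27 with FLT3 passed, are given only beside the other settings. In the 37 Fur and NWS ewes FLT3 had an r of 0.39 with CD27 (permutation p = 0.0349, adjusted p = 0.0698), 0.30 with CD80 (permutation p = 0.115, adjusted p = 0.138) and 0.42 with PDCD1 (permutation p = 0.0249, adjusted p = 0.0698). The rho values were 0.26, 0.27 and 0.25, with an adjusted permutation p of 0.175 each, so none passed. Without the 2 farthest libraries, r was 0.37, 0.39 and 0.20. Within the Irish clusters of 19 libraries each, r with CD27 was 0.60 below the gap (permutation p = 0.0251, adjusted p = 0.151 over 6 relations) and 0.29 above it (permutation p = 0.275, adjusted p = 0.551). With CD80 it was -0.14 and -0.09, and with PDCD1 0.02 and 0.49, none of which passed.

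Each gene was then set against the mean of each marker list, 32 relations in all, chosen after the data were seen. CD27 followed the B lineage and antibody list closely, with an r of 0.86 (permutation p = 1e-05, the smallest that these permutations can give, adjusted p = 8e-05) and a rho of 0.84 (permutation p = 1e-05, adjusted p = 0.00032). Without the 2 farthest libraries r was again 0.86. It was 0.80 in natural and 0.90 in luteal ewes, 0.91 in Irish and 0.81 in Norwegian ewes. A lower r was found with the T and NK lineage list, at 0.49 (permutation p = 1e-05, adjusted p = 8e-05, rho 0.44, adjusted p = 0.00149), and with the dendritic and myeloid list, also at 0.49 (permutation p = 0.00011, adjusted p = 0.000503, rho 0.34, adjusted p = 0.018). With the mucins r was 0.45 (permutation p = 0.00107, adjusted p = 0.00342, rho 0.32, adjusted p = 0.0279), but 0.19 without the 2 farthest libraries. Thus the ewes high in CD27 within their own breed and state were those high in antibody and plasma cell genes.

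PDCD1 had an r of 0.56 with the T and NK lineage list (permutation p = 1e-05, adjusted p = 8e-05, rho 0.52, adjusted p = 0.00064), and 0.52 without the 2 farthest libraries. Its r with the costimulation and cytokine receptor list was 0.52 (permutation p = 1e-05, adjusted p = 8e-05, rho 0.44, adjusted p = 0.00224). Without the 2 farthest libraries this was 0.47. PDCD1 also passed with the dendritic and myeloid list, at 0.50 (permutation p = 8e-05, adjusted p = 0.000427, rho 0.39, adjusted p = 0.00411), and with the B lineage list, at 0.43 (permutation p = 0.00021, adjusted p = 0.000747, rho 0.41, adjusted p = 0.00235).

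CD80, known from antigen-presenting cells, had an r of 0.46 with the epithelium list (permutation p = 8e-05, adjusted p = 0.000427, rho 0.42, adjusted p = 0.00235), and 0.43 without the 2 farthest libraries. It was 0.54 in natural and 0.40 in luteal ewes. Its r with the dendritic and myeloid list was 0.30 (permutation p = 0.0169, adjusted p = 0.0252, rho 0.28, adjusted p = 0.0457), and with the B lineage list 0.12 (permutation p = 0.336, adjusted p = 0.37, rho 0.12, adjusted p = 0.425). In the 37 Norwegian ewes, FLT3 had an r of 0.65 with the dendritic and myeloid list (permutation p = 0.00018, adjusted p = 0.00072, rho 0.47, adjusted p = 0.018), which was 0.39 without the 2 farthest libraries. With the interferon response list it was 0.51 (permutation p = 0.00243, adjusted p = 0.00648, rho 0.50, adjusted p = 0.00972), and 0.44 without them. The order of these lists thus turned when those libraries were left out.

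All 4 genes had a negative r with the smooth muscle list. Over the 75 libraries this was -0.28 for CD27 (permutation p = 0.0155, adjusted p = 0.0252), -0.33 for CD80 (permutation p = 0.00291, adjusted p = 0.00665) and -0.32 for PDCD1 (permutation p = 0.00517, adjusted p = 0.011), and none of their rho values passed. For CD27 it was -0.57 in Norwegian and -0.062 in Irish ewes, a difference that was not tested. FLT3 in the Norwegian ewes had -0.48 (permutation p = 0.00718, adjusted p = 0.0144), but -0.18 without the 2 farthest libraries.

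**Figure D5:**
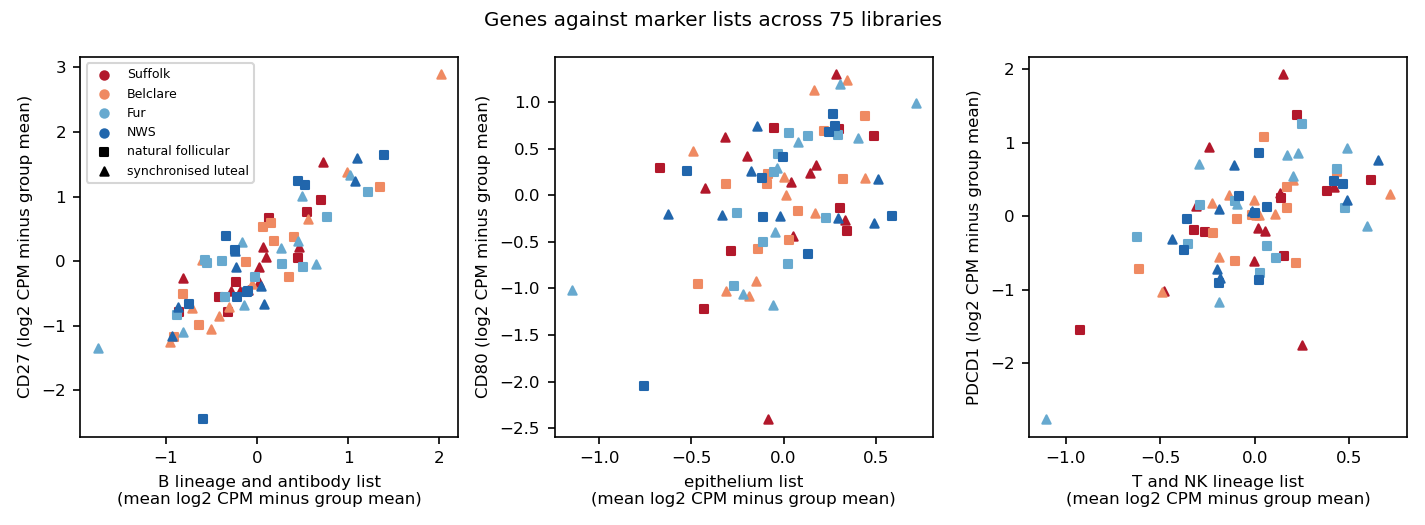
CD27 against the B lineage and antibody list, CD80 against the epithelium list and PDCD1 against the T and NK lineage list, as log2 CPM minus the mean of breed and state, in 75 natural follicular and luteal libraries. Colours mark breeds and shapes mark states, and Pearson's r is 0.86, 0.46 and 0.56.

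The named genes whose pattern was most like each of the 4 were taken as those of highest Pearson's r over all 114 mapped libraries, with breed and state taken out, as a description. The study's tables name only part of the 14811 genes, mostly genes that differ between breeds. For CD27 these were IRF4, a transcription factor of plasma cells (0.88), and both identifiers named IGHG3, an IgG heavy chain (0.85 and 0.83). IRF4 and IGHG3 are members of the B lineage list, and reads of antibody genes may be divided between near-identical copies. For PDCD1 they were EBI3, a cytokine subunit (0.60), WNT2 (0.56) and KIF21B (0.55). For CD80 they were HOOK1 (0.63), LRBA (0.63) and LNX2 (0.61). None is given for FLT3, whose libraries form clusters.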

How the data were processed

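Stranded mRNA libraries of 115 cervix samples were sequenced. The authors trimmed the read pairs with BBDuk, aligned them to Oar_v3.1 with STAR 2.6.1b, kept unique alignments of few mismatches, and obtained gene counts on the Ensembl annotation from featureCounts (Subread 1.6.3). The deposited values are raw counts per gene. Read pairs that differ from the reference or match several places are thus missing, and whether this loss differs between breeds was not tested.

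The filter asked for 1 CPM, without TMM scaling, in at least 10 libraries among the 39 of synchronised follicular ewes, which 14811 genes met. Each comparison was fitted on its own ewes with edgeR 4.0.16 (R 4.3.3), TMM scaling and the quasi-likelihood F test, with Benjamini-Hochberg adjustment over all genes. A gene was called at an adjusted p under 0.05 and a fold change above 1.5, and interactions at the adjusted p alone. The study used DESeq2's likelihood ratio test, and DESeq2 1.42.0 served as an alternative. Correlations used log2 CPM (prior count 2), and 100000 permutations (numpy 2.4.6). Both were tested on simulated data. Groups came from the labels, and 1 library with conflicting labels was left out. P-values measure the spread between ewes. The genes and lists were chosen with earlier results of these data known. The genes named beside the 4 were, per list, the 2 of smallest p in natural NWS compared to Suffolk ewes. No genome of the build was used, so no sequences or coordinates are given.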

Additional observations from a re-analysis of the deposited data

Results flagged for a closer look

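A library far from the rest of its group was found in 6 of 44 combinations of gene and group. How many chance alone would flag was not tested. CD27 stood at 13.6 CPM in replicate 5 of luteal Suffolk, with the others between 3.29 and 5.38 CPM. CD80 was low in replicate 2 of synchronised follicular Belclare (1.86 CPM, others 5.15 to 12.1), in replicate 5 of natural NWS (0.896 CPM, others 2.6 to 7.51) and in replicate 4 of luteal Suffolk (0.739 CPM, others 3.22 to 11). FLT3 was high in replicate 3 of natural NWS (3.53 CPM, others 0.265 to 1.01) and low in replicate 9 of synchronised follicular NWS (0.0636 CPM, others 0.384 to 1.25), the latter resting on 1 count.

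The Suffolk library outside every comparison, for which the labels do not settle the cycle and phase, held all 4 genes, with CD27 at 2.23, CD80 at 4.23, PDCD1 at 3.60 and FLT3 at 9.96 CPM. No control applies to it, and each value is above the 0.195 CPM that 3 counts give there.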

How the results depend on the processing

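Under the other settings than leaving out an ewe, 513 of 548 log2 fold changes of the 4 genes kept their direction and their side of the threshold. Of 137 counts of called genes, 123 were scored as the same. These include luteal Fur compared to Suffolk, where CD80 was called in addition with DESeq2, with all 4 breeds in one fit and with the replicate block. DESeq2's size factors, a filter on the state's own libraries, no fold change threshold and leaving out the 2 NWS libraries of low COX-1 changed no call of the 4 genes. The causes of the changes below were not tested.

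With the ACTG2 and DES covariate, 0 genes of the 4 were called in natural Fur, luteal Fur and luteal NWS compared to Suffolk, when 38, 1801 and 1 of all genes were called. CD80 turned to -0.068 and PDCD1 to 0.17 in natural Fur, CD27 to 0.27 and PDCD1 to 0.45 in natural NWS, CD80 to 0.13 in luteal Fur and CD27 to -0.028 in luteal Belclare. DESeq2's Wald test called 1 gene in natural NWS compared to Suffolk (FLT3, adjusted p = 0.0117), 2 in natural NWS compared to Belclare (CD80 besides FLT3), and 2 each in luteal Belclare compared to natural and to synchronised follicular Belclare ewes (CD27 besides CD80). All 4 breeds in one fit also gave 1 and 2 genes in those natural NWS comparisons. With no filter on low counts, luteal compared to synchronised follicular Belclare ewes gave 0 genes (CD80, adjusted p = 0.0541). In natural NWS compared to Suffolk, all genes called went from 147 to 830 with DESeq2, 1106 with all breeds in one fit and 0 without the 2 NWS libraries, and in luteal Belclare from 360 to 938 and 720 with the first 2 of these.

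The replicate numbers belong to different animals, and in no comparison did every number correlate above 0.1, so they do not pair the ewes. With the replicate block, 0 genes of the 4 were called in natural Fur (FLT3 -0.90), luteal Belclare (PDCD1 -1.10) and luteal NWS compared to Suffolk (PDCD1 -1.54, FLT3 -1.63), and 1 in luteal Fur compared to Belclare, with all genes called going from 1425 to 942, from 360 to 18, from 645 to 211 and from 2409 to 2015. CD80 passed in luteal Fur (-0.997, adjusted p = 0.0391). Under the replicate block these values turned: PDCD1 in natural NWS compared to Suffolk (0.055), CD27 in natural NWS compared to Fur (-0.054), CD27 in luteal Belclare compared to Suffolk (-0.39) and in its interaction (-0.36), FLT3 by state in Belclare (-0.051), NWS (0.16) and Suffolk (-0.10), and CD27 by state in Fur (-0.11).

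Leaving out 1 ewe at a time gave from 0 to 1 called genes in natural Fur, natural NWS and luteal Belclare, from 3 to 4 in luteal Fur and from 0 to 3 in luteal NWS compared to Suffolk. Luteal Fur compared to Belclare gave 1 without Belclare replicate 7, and luteal compared to natural Suffolk ewes gave 1 without luteal replicate 5, both chosen after the data were seen. The log2 fold change turned for CD80 in natural Fur (from -0.054 to 0.20), PDCD1 in natural NWS (from -0.23 to 0.20), and CD27 (from -0.57 to 0.47) and FLT3 (from -0.11 to 0.55) in luteal Belclare.

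Of the correlations, CD27 with PDCD1 passed in luteal ewes (0.42), without Suffolk (0.33) and without the 2 farthest libraries (0.35). Pooled over the FLT3 clusters, CD27 with FLT3 passed at 0.38 (permutation, adjusted p = 0.0075) but not in luteal ewes (0.34) or in Fur and NWS ewes (0.39), PDCD1 with FLT3 passed without Suffolk (0.34) and turned to -0.027 without the 2 farthest libraries, and CD80 with FLT3 turned to -0.27 in natural ewes and -0.025 without the 2 farthest libraries. FLT3 with the dendritic and myeloid list did not pass in natural ewes alone (0.48).

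Depth limits single values near 3 counts, where 1 count moves the level by a large share, and FLT3 in Norwegian ewes lay there most often. Each breed was sampled in 1 country.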

Other observations

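Interferon response genes differed by breed and state. In natural ewes 5 of 10 were higher in Fur compared to Suffolk, among them ISG15 (log2 fold change 2.05, SE 0.44, adjusted p = 0.00642) and MX1 (1.33, SE 0.26, adjusted p = 0.00403), both antiviral genes that interferon induces, and FLT3 was lower in the same comparison. Of all genes, 9.62% were called there. At the luteal phase 2 of 10 were lower in Fur compared to Suffolk, and 6 of 10 compared to Belclare, with 13.8% and 16.3% of all genes called. Luteal Suffolk ewes had 8 of 10 higher than natural Suffolk ewes, with ISG15 at 2.35 (SE 0.41, adjusted p = 0.00169), and luteal Fur ewes had 3 of 10 lower than natural ones. In these comparisons by state 12.7% and 18.5% of all genes were called. The counts of 2 of 10 and 3 of 10 in Fur thus say little beside those of all genes. Across libraries CD80 had an r of 0.29 with this list (permutation p = 0.0135, adjusted p = 0.0241, rho 0.25, adjusted p = 0.0607), CD27 of 0.17 (permutation p = 0.189, adjusted p = 0.216) and PDCD1 of 0.02 (permutation p = 0.85, adjusted p = 0.878).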
